A study of Mus musculus with 64 samples.

Results

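The 7 genes followed here restrain the cell cycle or accompany its arrest: the inhibitors of cyclin-dependent kinases Cdkn1a (p21Cip1), Cdkn1b (p27Kip1), Cdkn1c (p57Kip2) and Cdkn2d (p19Ink4d), the antiproliferative genes Btg1 and Btg2, and Gadd45g. They were chosen by name, with earlier results of these data known, and every probe set annotated to 1 of them alone was used. This gave 11 probe sets of the 22626 on the array, for 7 of the 12393 genes that have a probe set of their own. Cdkn1a, Cdkn1b, Btg1 and Btg2 have 2 probe sets each, and Cdkn1c, Cdkn2d and Gadd45g have 1. All 11 passed the filter on low signal, which 15337 probe sets passed.

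The samples are inner ear epithelia dissected from CBA/J mouse embryos every 0.5 days from E9 to E15, read on 64 Affymetrix arrays in 32 groups of 2. The inner ear is covered by the otic placode at E9, the otic vesicle at E9.5 and E10, the cochlea from E10.5 to E15, the vestibular organ until E12, and from E12.5 on by the saccule and by the utricle dissected together with its 3 ampullae, which are 58 arrays in 29 groups. Non-inner ear tissue from around the ear, called surrounding tissue below, gives the other 3 groups, at E9, pooled over E9.5 to E10.5 and pooled over E11 to E15. Each array holds a pool of tissues, 6 to 17 where the labels give a number, and the 2 pools of a group came from different litters. All embryos are of 1 strain with no mutation or treatment, and the epithelium was freed with dispase (8 to 10 minutes until E10.5, then 20 to 25 minutes from E11).

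Cells leave the cycle when the kinases that drive G1 into S phase are held off. The Cip/Kip proteins Cdkn1a, Cdkn1b and Cdkn1c bind complexes of cyclins with these kinases, while Cdkn2d belongs to the INK4 family, which binds the kinases that partner with D-type cyclins. Btg1 and Btg2 are antiproliferative proteins that work through mRNA deadenylation and transcriptional partners, and Gadd45g is a stress and differentiation gene of the GADD45 family. In the developing cochlea Cdkn1b is known for marking and maintaining the exit of hair cell and supporting cell precursors from the cycle, and Cdkn1a and Cdkn2d for keeping hair cells out of it later.

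The 250 bases before the transcription start differ in the core promoter letters they hold. RefSeq sequences on GRCm38.p6 were found for 6 of the 7 genes, with 2 starts for Cdkn1a and none for Cdkn1c. The 4 windows below belong to the genes that rose from placode to vesicle by E9.5 (Cdkn1a, Btg2 and Gadd45g) and to Btg1, which set the cochlea apart from the other organs. Capitals mark motifs found on either strand, so that some are shown as their reverse complement. The TATA box was searched as TATAAA, the CCAAT box by the letters of its name and the GC box as GGGCGG. Of the E box, which basic helix-loop-helix proteins bind, the form CACGTG was searched, and so was a second form of it, CAGCTG. The cyclic AMP response element was searched as TGACGTCA. The p53 site was searched by its paired core, CATG followed after 6 bases by the same letters. The motifs were chosen after the windows had been read. The windows run 5′ to 3′ along the gene and lie at chr17:29090729-29090978, plus strand (the first start of Cdkn1a), at chr10:96616751-96617000, plus strand (Btg1), at chr1:134079156-134079405, minus strand (Btg2) and at chr13:51846425-51846674, plus strand (Gadd45g).
Cdkn1a: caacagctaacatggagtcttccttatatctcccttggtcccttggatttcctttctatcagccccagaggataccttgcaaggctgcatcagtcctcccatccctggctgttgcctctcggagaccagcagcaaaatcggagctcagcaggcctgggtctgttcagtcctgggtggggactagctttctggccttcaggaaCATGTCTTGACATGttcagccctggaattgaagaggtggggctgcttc
Btg1: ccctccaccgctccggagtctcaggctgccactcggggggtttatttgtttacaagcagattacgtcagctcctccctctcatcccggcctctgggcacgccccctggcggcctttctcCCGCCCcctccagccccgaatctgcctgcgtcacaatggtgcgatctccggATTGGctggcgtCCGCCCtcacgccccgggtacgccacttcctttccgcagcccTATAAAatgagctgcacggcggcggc
Btg2: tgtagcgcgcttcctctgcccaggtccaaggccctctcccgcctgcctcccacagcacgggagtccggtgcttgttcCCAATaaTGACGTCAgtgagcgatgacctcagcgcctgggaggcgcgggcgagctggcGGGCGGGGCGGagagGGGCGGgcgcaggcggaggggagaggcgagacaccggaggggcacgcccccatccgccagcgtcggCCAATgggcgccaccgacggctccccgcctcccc
Gadd45g: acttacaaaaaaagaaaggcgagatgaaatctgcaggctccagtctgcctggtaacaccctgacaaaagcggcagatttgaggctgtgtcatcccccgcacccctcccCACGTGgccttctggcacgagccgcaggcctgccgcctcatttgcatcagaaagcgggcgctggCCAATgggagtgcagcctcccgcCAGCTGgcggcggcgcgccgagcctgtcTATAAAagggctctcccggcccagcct

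The first Cdkn1a window holds the p53 pair between 48 and 35 bases before the start, letters found in 0.49% of the 32851 RefSeq windows of this length, and none of the other motifs. The window of its second start, at chr17:29093519-29093768, instead has 2 GC boxes. Which of the 2 starts these tissues use was not measured. Btg1 and Gadd45g carry a TATA box at 26 to 21 and at 27 to 22 bases before the start, a motif in 12.4% of windows, and Btg1 has a CCAAT and 2 GC boxes on the minus strand besides. Btg2 has no TATA box but a full cyclic AMP response element at 166 to 159 bases before the start, in 1.55% of windows, with 2 CCAAT letters (33.8% of windows) and 3 GC boxes (32.7% of windows), 2 of which overlap. Gadd45g also has a CACGTG (6.02% of windows), a CAGCTG (13.0%) and a CCAAT. Cdkn1b has 2 CCAAT and 1 GC box, and Cdkn2d 1 CCAAT and 3 GC boxes. These are letter matches, and no binding was measured.

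Values below are signals of the authors' MAS5 software after quantile normalization of the arrays, in arbitrary units on a linear scale with a median of 87.5 on each array and a floor of 10. Signals of different probe sets cannot be set against each other, so levels are compared only within a probe set. Differences are on the log2(signal + 16) scale, where low signals understate a change. Folds are computed from these differences, so they are folds of signal + 16 and not of the signal. A probe set is called changed when its limma adjusted p is below 0.05 and its difference is at least 1 on that scale. The markers of the dissected tissue were present: the summed signal of 8 otic markers was 14578 to 20937 in the cochlea from E12.5 on and 1223 to 1287 in the placode, against 709 to 877 in the late surrounding tissue. Surrounding tissue held much signal of other cells, with a sum over 9 mesenchyme markers of 15764 to 17105 at E11 to E15 and over 12 neuron markers of 20442 to 22092 at E9.5 to E10.5. The arrays of a pair correlated at 0.9416 to 0.9913 across probe sets, lowest for the utricle samples at E14, the vesicle at E9.5 (0.9554) and the utricle samples at E12.5 (0.9578), and at 0.9655 for the cochlea at E15.

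**Figure D1:**
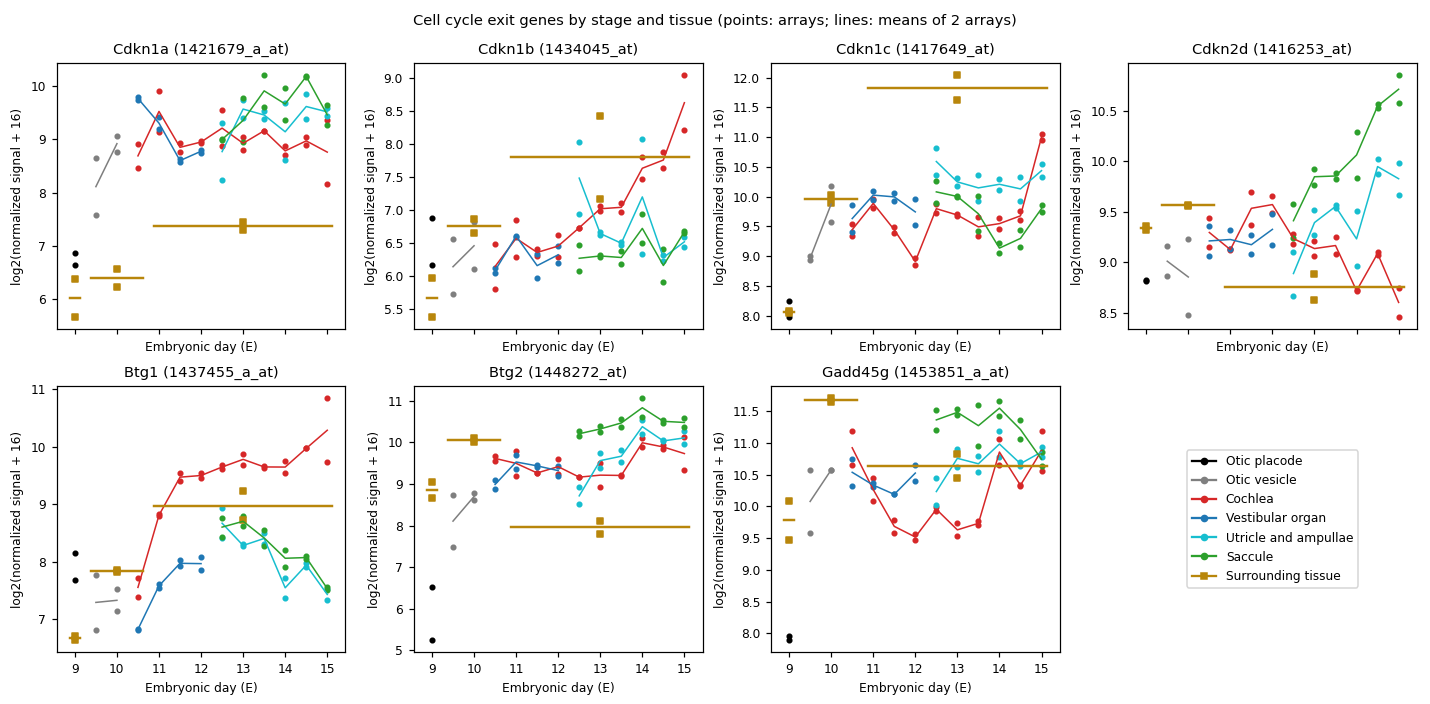
Normalized signal of the 7 genes on a log2(signal + 16) axis against embryonic day, 1 probe set per gene (that with the highest mean). Points are arrays, lines join the means of 2 arrays, and gold bars span the days pooled in surrounding tissue. Btg1 in the cochlea runs from 194 and 152 at E10.5 to 829.6 and 1819.6 at E15, while Cdkn2d in the saccule reaches 1506 and 1831.

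Cdkn1a, the inhibitor best known as a direct target of p53, was low in the placode and in all surrounding tissue and was high in the inner ear from the vesicle on. Its probe set 1421679_a_at read 101 and 84.2 in the placode arrays, 385 and 175 in the vesicle at E9.5 and 522 and 420.0 at E10. No vesicle array at either stage was as low as a placode array. From the placode to the vesicle at E10 the rise was 2.16 (SE 0.35, limma adjusted p = 2.49e-05), a 4.48-fold change, and for the second probe set, 1424638_at, which went from 73.3 and 65.4 to 555 and 324, it was 2.37 (SE 0.3, limma adjusted p = 2.84e-07). Already at E9.5 both probe sets were called, at 1.36 (SE 0.35, limma adjusted p = 0.0323) and 1.19 (SE 0.3, limma adjusted p = 0.0252). Each of these E9.5 calls was lost without either placode array or without replicate 1 of the vesicle at E9.5, which left changes of 0.82 or more for 1421679_a_at and 0.98 or more for 1424638_at, and also in a fit to these 4 arrays alone (adjusted p = 0.824 and 0.805). From E9.5 to E10, 1424638_at rose again by 1.18 (SE 0.3, limma adjusted p = 0.0102), a call lost without replicate 2 at E9.5 or replicate 1 at E10, where the change was as low as 0.81.

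In surrounding tissue 1421679_a_at read 34.8 and 66.8 at E9, 79.2 and 59.3 at E9.5 to E10.5 and 142 and 158 at E11 to E15. Over the 48 inner ear arrays of E11 to E15 it ran from 271 to 1164 with a median of 563, all above the late surrounding tissue. The difference was 2.35 (SE 0.28, limma adjusted p = 1.6e-08) at E9.5 to E10.5 and 1.83 (SE 0.26, limma adjusted p = 1.25e-07) at E11 to E15, or 5.1-fold and 3.55-fold. Its partner 1424638_at gave 2.16 (SE 0.24, limma adjusted p = 2.47e-09) and 1.59 (SE 0.22, limma adjusted p = 7.51e-08). At E9 itself the placode was not called different from its surroundings, at 0.74 (SE 0.35, limma adjusted p = 0.133) and 0.72 (SE 0.3, limma adjusted p = 0.0778), but with values as deposited, without quantile normalization, both were called higher in the placode, at 1.09 (adjusted p = 0.015) and 1.05 (adjusted p = 0.00782). These are bulk samples, in which fewer cells with the transcript and less of it per cell cannot be told apart.

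Within the inner ear after E10.5, the vestibular organ gave the only called trend of Cdkn1a. The vestibular organ started highest, at 873 and 839 at E10.5 and 669 and 568 at E11, and read 380.2 and 365 at E11.5 and 432 and 414 at E12. That change of -1.1 (SE 0.33, limma adjusted p = 0.0198) was called for 1421679_a_at, while 1424638_at gave -0.39 (SE 0.28, limma adjusted p = 0.37). Leaving out either array of E10.5 or of E12 ended the call, at an adjusted p up to 0.0961, and over E11 to E12 alone, within 1 dispase time, the change was -0.53 (adjusted p = 0.347). In the cochlea the 20 arrays ran from 271 to 946 with a median of 473, with no called trend from E10.5 to E15 (-0.18, 95% interval -0.68 to 0.33). The saccule reached the highest levels of 1421679_a_at in the series, 1164 and 769 at E13.5 and 1136 and 1153 at E14.5, but its trend of 0.65 (SE 0.3, limma adjusted p = 0.1) was not called. For 1424638_at the vestibular organ at E10.5 was highest, at 637 and 556.

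Cdkn1b, the inhibitor tied most closely to cell cycle exit in the cochlea, rose in the cochlea towards E15. Probe set 1434045_at read 40.1 and 73.4 at E10.5, 62.6 and 99.2 at E11, 63.3 and 69.0 at E11.5 and 62.0 and 82.9 at E12. It then read 90.4 and 90.4 at E12.5, 117 and 110.4 at E13, 109 and 123 at E13.5, 207 and 161 at E14, 183 and 220.0 at E14.5 and 280.1 and 512 at E15. The last 6 cochlea arrays, from E14 on, were the highest of the 20. The change fitted from E12.5 to E15 was 1.75 (SE 0.32, limma adjusted p = 5.99e-05), or 3.37-fold, and that from E10.5 to E15 2.13 (SE 0.27, limma adjusted p = 1.24e-08). Without the E15 arrays, an alternative chosen after seeing the data, these were 1.07 (adjusted p = 0.035) and 1.54 (adjusted p = 2.18e-05).

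Means of E14.5 and E15 exceeded those of E12.5 to E13.5 by 1.26 (SE 0.25, limma adjusted p = 0.000176), with no overlap, since the earlier 6 arrays ran from 90.4 to 123 with a median of 109.9 and the later 4 from 183 to 512 with a median of 250.1. Without E15 that step was 0.83 and no longer called. Across E12, from E11 to E12 against E12.5 to E13.5, the same probe set changed by 0.47 (SE 0.22, limma adjusted p = 0.0947), with overlapping arrays and no call. The saccule arrays ran from 44.1 to 107 with a median of 68.2 and gave a trend of 0.29 (SE 0.32, limma adjusted p = 0.548). In the utricle samples 10 of the 12 arrays lay between 59.4 and 107, and replicate 1 at E12.5 and at E14 read 245 and 253, with a trend of -0.74 (SE 0.32, limma adjusted p = 0.0728). Signals of 1434045_at were often low, below the array median in 42 of the 64 arrays. Among these were 11 of the 12 saccule arrays, 9 of the 12 utricle arrays, all 8 vestibular arrays and 7 of the 20 cochlea arrays.

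The second Cdkn1b probe set, 1419497_at, was weak, at the floor of 10 in 14 of the 64 arrays and below the array median in 50. Both placode arrays, both vesicle arrays of E9.5 and both cochlea arrays of E10.5 were at the floor, and the cochlea read 97.0 and 93.3 at E11. The utricle samples read 18.4 and 10 at E12.5, 10 and 22.2 at E14 and 89.7 and 76.2 at E15. From E12.5 to E15 its trend was not called in the cochlea, the utricle samples or the saccule. The utricle trend was called with values as deposited, at 1.03 (limma adjusted p = 0.0207), and with a pseudocount of 1, at 1.44 (limma adjusted p = 0.0204). It was called higher with stage in the cochlea over E10.5 to E12, at 1.27 (SE 0.37, limma adjusted p = 0.0104), and over E10.5 to E15, at 1.08 (SE 0.28, limma adjusted p = 0.00109). From E11 on, within 1 dispase time, the early change turned to -0.39 (adjusted p = 0.503) and the long one was 0.31 (adjusted p = 0.365), so stage and dispase time cannot be told apart for it. Single arrays also ended these calls: replicate 2 of E10.5 or replicate 1 of E12 the early one (as low as 1.08, adjusted p up to 0.0976), and replicate 2 of E13.5, replicate 2 of E14, replicate 1 of E14.5 or replicate 1 of E15 the long one (as low as 0.92).

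Surrounding tissue itself gained Cdkn1b with age. Probe set 1434045_at read 46.7 and 25.7 at E9, 84.4 and 101 at E9.5 to E10.5 and 329 and 128 at E11 to E15, where replicates 1 and 2 differed more than 2-fold. The 2 probe sets rose from E9 to E11 to E15 by 2.12 (SE 0.38, limma adjusted p = 1.55e-05) and 2.21 (SE 0.39, limma adjusted p = 1.39e-05), the latter from the floor in both E9 arrays, so that no fold is given. The inner ear at E11 to E15 was called lower than surrounding tissue for 1434045_at, at -1.07 (SE 0.28, limma adjusted p = 0.00116), with overlapping arrays, and without replicate 1 of the late surrounding tissue the difference was -0.44 (adjusted p = 0.334). At E9.5 to E10.5 1419497_at was called lower in the ear, at -1.78 (SE 0.31, limma adjusted p = 2.51e-05), with 5 of the 8 ear arrays at the floor. With a pseudocount of 64 that difference was -0.98 and not called.

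Cdkn1c, a Cip/Kip inhibitor expressed from the maternal allele, had its highest signals outside the ear. In surrounding tissue it read 249 and 255 at E9, 936 and 1024 at E9.5 to E10.5 and 4196 and 3140.0 at E11 to E15, a rise of 3.77 (SE 0.2, limma adjusted p = 5.96e-18) or 13.6-fold. No inner ear array reached the late surrounding tissue: the 48 arrays of E11 to E15 ran from 449 to 2099 with a median of 947. The difference was -1.98 (SE 0.15, limma adjusted p = 1.77e-14), the largest drop of any member in that comparison. The mesenchyme markers moved the same way, with 9 of 9 called lower in the ear and sums of 15764 to 17105 in surrounding tissue against 3009 to 6343 in the late cochlea, 1586 to 3545 in the utricle samples and 2233 to 4142 in the saccule, and their part in the result was not tested.

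Inside the ear Cdkn1c began at 288 and 237 in the placode, read 472 and 498 in the vesicle at E9.5 and 744 and 1147 at E10. Each step up was without overlap, but neither step alone was called. The rise over both was 1.76 (SE 0.2, limma adjusted p = 3.74e-08), or 3.39-fold, and was called. In the cochlea it read 977 and 887 at E11 and 449 and 484 at E12, and the trend over E10.5 to E12 of -0.61 (SE 0.19, limma adjusted p = 0.0158) was not called. It then read 831 and 922 at E12.5, 806 and 817 at E13, 629 and 789 at E13.5, 689 and 779.5 at E14 and 849 and 761 at E14.5. At E15 it read 1963 and 2099, above every other cochlea array and with both replicates alike. The fitted change over E12.5 to E15 was 0.86 (SE 0.17, limma adjusted p = 0.000177), under the size needed for a call, and -0.58 (SE 0.17, limma adjusted p = 0.00802) in the saccule, where the arrays ran from 515 to 1213 with a median of 877.

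Cdkn2d, the INK4 inhibitor of the set, rose in the saccule, where Cdkn1b was not called. The saccule read 749 and 589 at E12.5, 955 and 855 at E13, 930.4 and 887 at E13.5, 894 and 1237 at E14, 1501 and 1453 at E14.5 and 1506 and 1831 at E15. All 4 arrays of E14.5 and E15 were above all 60 others of the series. The fitted change was 1.26 (SE 0.17, limma adjusted p = 1.65e-07), or 2.39-fold, and without the E15 arrays 0.99 (adjusted p = 7.85e-05), just under the size for a call. In the utricle samples it read 391 and 535 at E12.5, 717 and 599 at E13, 744 and 725 at E13.5, 481 and 709 at E14, 919 and 1023 at E14.5 and 997 and 797 at E15, a trend of 0.86 (SE 0.17, limma adjusted p = 0.000118) that passed on p but not on size. The cochlea read 606 and 565 at E12.5 and 413 and 335 at E15, a trend of -0.54 (SE 0.17, limma adjusted p = 0.0153), also under that size. Averaged over E12.5 to E15, the cochlea was -1.08 (SE 0.081, limma adjusted p = 2.73e-14) against the saccule, called lower though the arrays overlapped. Without E15 it was -0.88. Before E12.5 Cdkn2d read 437 and 435 in the placode and from 519.6 to 698 with a median of 579.5 in the vestibular organ, and neither step from placode to vesicle was called.

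Btg1 was higher in the cochlea than in each other inner ear organ it was set against. Its 2 probe sets correlated across the 29 inner ear groups at r = 0.99. In the cochlea 1437455_a_at read 194 and 152 at E10.5, 436 and 427 at E11, 724 and 661 at E11.5 and 726 and 687 at E12. It then read 801 and 768 at E12.5, 805 and 922 at E13, 795 and 775 at E13.5, 841 and 731 at E14, 987 and 984 at E14.5 and 829.6 and 1819.6 at E15. All arrays from E11.5 on were above the 4 of E10.5 and E11, and the E15 arrays lay far apart. The vestibular organ at the same stages read 96.1 and 98.3 at E10.5, 180.2 and 170.5 at E11, 245 and 225 at E11.5 and 216 and 253 at E12. Its E11 to E12 arrays all lay below the cochlea arrays of those stages.

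From E10.5 to E12 the cochlea rose by 1.95 (SE 0.23, limma adjusted p = 2.91e-08) and the vestibular organ by 1.15 (SE 0.23, limma adjusted p = 0.00042). Part of both steps falls between E10.5 and E11, where the dispase time changed, and stage and dispase cannot be told apart there: from E11 to E12 the changes were 0.69 (adjusted p = 0.0347) and 0.39 (adjusted p = 0.306), neither called. Each stage had 1 dispase time for both organs, and whether the organs respond alike to it was not tested. The difference between the 2 organs was 1.25 (SE 0.12, limma adjusted p = 1.64e-10) over E10.5 to E12, the only member called there, and 1.42 (adjusted p = 2.72e-10) over E11 to E12. Its partner 1426083_a_at gave 0.96 (SE 0.11, limma adjusted p = 2.62e-08).

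From E12.5 to E15 Btg1 fell in the utricle samples and the saccule, and its cochlea trend of 0.54 (SE 0.2, limma adjusted p = 0.0482) was not called. The utricle samples went from 472 and 323 at E12.5 to 168 and 146 at E15, and the saccule from 329.9 and 419 to 173 and 166. The changes were -1.15 (SE 0.2, limma adjusted p = 3.08e-05) and -1.08 (SE 0.2, limma adjusted p = 6.62e-05). Each fell under the size for a call without 1 array, replicate 1 of E12.5 in the utricle samples (-0.97) and replicate 2 of E12.5 in the saccule (-0.96), and without the E15 arrays the changes were -0.88 and -0.68. For 1426083_a_at the utricle trend of -1.0 (SE 0.19, limma adjusted p = 0.00011) was at the size needed for a call, and leaving out any of 6 arrays (E12.5 replicate 1, E13 replicate 2, E13.5 replicate 1 and replicate 2 of E14, E14.5 and E15) ended that call at sizes down to -0.89. Over E12.5 to E15 the 12 cochlea arrays ran from 731 to 1819.6 with a median of 817, all above the 12 of the utricle samples, which ran from 146 to 472 with a median of 263, and the 12 of the saccule, from 166 to 426 with a median of 286. The difference was 1.78 (SE 0.098, limma adjusted p = 2.3e-18), or 3.44-fold, to the utricle samples and 1.6 (SE 0.098, limma adjusted p = 9.07e-17), or 3.03-fold, to the saccule. The partner probe set gave 1.6 and 1.5, again without overlap.

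At E9 Btg1 was higher in the placode (269.5 and 188) than in surrounding tissue (88.8 and 83.7), at 1.24 (SE 0.24, limma adjusted p = 0.00026), a difference of 0.998 without placode replicate 1 and of 0.8 (adjusted p = 0.0101, too small for a call) for the other probe set. Surrounding tissue later gained it too, to 214 and 209.8 and then 582 and 406, a rise of 2.3 (SE 0.24, limma adjusted p = 4.11e-10) from E9.

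Btg2, an immediate target of p53 and of growth signals and a marker of neurogenic divisions in the nervous system, rose from near background in the placode by 1 of its 2 probe sets. Probe set 1448272_at read 75.4 and 21.9 in the placode, both below the array median, then 408 and 163 in the vesicle at E9.5 and 425 and 375 at E10. Surrounding tissue at E9 already read 390.3 and 509. The placode was lower than its surroundings, at -2.97 (SE 0.29, limma adjusted p = 6.41e-10), and the vesicle at E9.5 was higher than the placode by 2.23 (SE 0.29, limma adjusted p = 3.67e-06). In a fit to those 4 arrays alone the second had an adjusted p of 0.824. By E10 the gain was 2.82 (SE 0.29, limma adjusted p = 4.59e-09).

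The order of ear and surroundings then turned round. At E9.5 to E10.5 surrounding tissue read 1086 and 1016, above all 8 inner ear arrays of those stages, which ran from 163 to 805 with a median of 439. The difference was -1.36 (SE 0.24, limma adjusted p = 1.85e-05), and with values as deposited -0.93 (adjusted p = 0.00137), under the size for a call. At E11 to E15 it read 207 and 259, below all 48 inner ear arrays, which ran from 348 to 2132 with a median of 877. The difference was 1.79 (SE 0.21, limma adjusted p = 3.89e-09). The 12 neuron markers also stood apart in surrounding tissue, with sums of 3217 to 3634 at E9, 20442 to 22092 at E9.5 to E10.5 and 16495 to 17602 at E11 to E15, against 1614 to 4474 in the vesicle and at most 7363 in any ear array, and their part in these differences was not tested. Within the ear the saccule had the highest levels, from 1118 to 2132 with a median of 1367, all above the 12 cochlea arrays of E12.5 to E15. The mean difference of -0.94 (SE 0.12, limma adjusted p = 2.5e-08) stayed under the size for a call. In the utricle samples Btg2 went from 348 and 468 at E12.5 to 1168 and 1486 at E14 and 1216 and 976 at E15, a rise of 1.3 (SE 0.25, limma adjusted p = 9.9e-05). The other Btg2 probe set, 1416250_at, stayed between 33.5 and 117, below the array median in 57 arrays, and was called in none of the 22 comparisons. It did not rise from the placode (96.8 and 114) to the vesicle at E9.5 (70.7 and 100.2) or at E10 (77.5 and 74.2). Across E12 in the cochlea it changed by 0.61 (SE 0.11, limma adjusted p = 3.83e-05), under the size for a call.

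Gadd45g, a relative of the growth arrest and DNA damage genes, was also lowest in the placode. It read 223 and 232 in the placode, 1515 and 746 in the vesicle at E9.5 and 1503 and 1512 at E10, against 697 and 1070.2 and then 3321 and 3168 in surrounding tissue. The placode lay below its surroundings, at -1.85 (SE 0.24, limma adjusted p = 3.4e-07), and the vesicle at E9.5 above the placode by 2.15 (SE 0.24, limma adjusted p = 1.25e-07), or 4.44-fold (adjusted p = 0.792 in a fit to the 4 arrays). At E9.5 to E10.5 the ear was still lower, at -1.21 (SE 0.19, limma adjusted p = 4.81e-06), though with values as deposited it was under the size for a call, at -0.9 (adjusted p = 0.000318). At E11 to E15 no difference was called, at -0.12 (SE 0.17, limma adjusted p = 0.583).

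In the cochlea Gadd45g dipped and returned. It read 2316 and 1598 at E10.5, 1384 and 1064 at E11, 752 and 867 at E11.5 and 740.5 and 694 at E12. It then read 996 and 956 at E12.5, 834 and 723 at E13, 854 and 816 at E13.5, 1589.5 and 2120.0 at E14, 1277 and 1269 at E14.5 and 2319 and 1498 at E15. All 10 arrays of E11.5 to E13.5 were below all 10 of E10.5, E11 and E14 to E15. The early change was -1.44 (SE 0.23, limma adjusted p = 1.14e-05), and within 1 dispase time, from E11 on, -0.75 (adjusted p = 0.0236). The later rise was 1.12 (SE 0.2, limma adjusted p = 5.57e-05), called in every fit with 1 array left out except without replicate 1 of E15 (0.90) or without both E15 arrays (0.79). The vestibular organ showed no such dip, running from 1151 to 1708 with a median of 1282 with a trend of -0.05 (SE 0.23, limma adjusted p = 0.912). The saccule was highest, from 1567 to 3232 with a median of 2674, and over E12.5 to E15 the cochlea was lower, at -1.04 (SE 0.099, limma adjusted p = 2.18e-11), with overlap, a difference of -0.98 without cochlea E15 replicate 2 and under 1 as well without saccule E13.5 replicate 1. Saccule arrays also carried more signal of 6 hindbrain markers, with sums of 1591 to 3159.8 against 233 to 901 in the late cochlea and 434 to 1168 in the utricle samples, and of 6 red blood cell markers, 2010.2 to 11566 against 1105 to 3804 in the late cochlea. Their part in the saccule levels of Gadd45g, Btg2 and Cdkn2d was not tested.

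**Figure D2:**
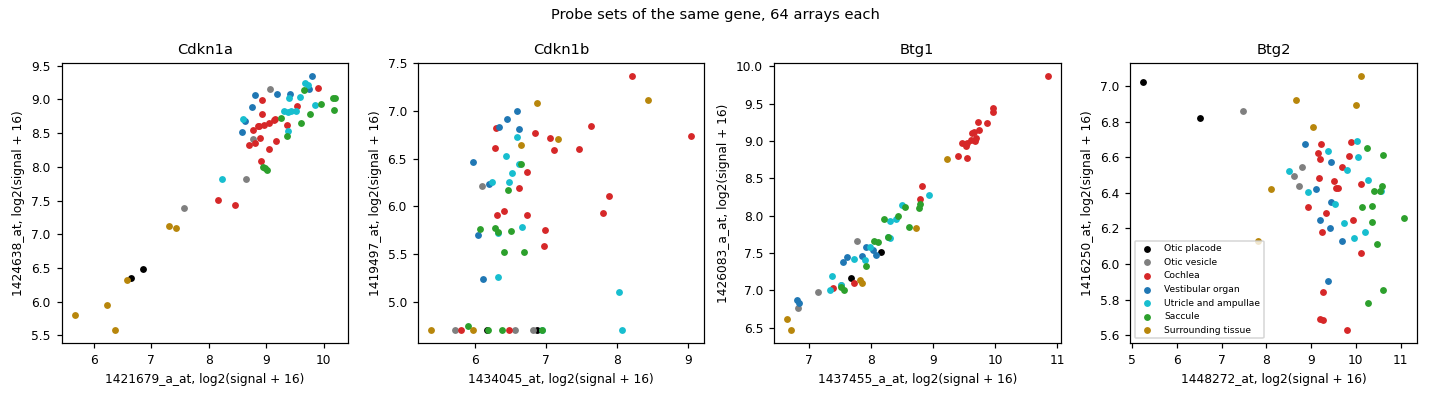
Each panel sets the 2 probe sets of a gene against each other on log2(signal + 16) axes, 1 point per array and 64 arrays per panel, coloured by tissue. Btg1 and Cdkn1a fall along a line (r = 0.99 and 0.84 over the 29 inner ear group means), Cdkn1b scatters with 1419497_at often at the floor (r = 0.31), and Btg2 shows no rise of 1416250_at with 1448272_at (r = -0.42).

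Counted over the set, limma on all 64 arrays called several of these genes higher over the first day of otic development. Since the genes were chosen with earlier results of these data known, the shares of all probe sets beside the counts describe the set and do not test it. From placode to vesicle at E9.5, 4 of 11 probe sets of 3 genes (Cdkn1a, Btg2 and Gadd45g) were called, all higher, where 0.704% of all probe sets were called in either direction. Over E9 to E10 it was 5 of 11 of 4 genes, with Cdkn1c added, against 5.51% of all. The median change over the 11 by E10 was 0.75, beside 0.01 over all probe sets. In a fit to the 4 arrays of E9 and E9.5 alone limma called none of 11, with 5 at an unadjusted p under 0.05, and with weights for each array it called 2. From E9.5 to E10 it was 1 of 11 (Cdkn1a) against 2.07% of all. The 3 comparisons share arrays, and neither Cdkn1b, Cdkn2d nor Btg1 was called in any of them. Summed signals of 8 otic markers were 1223 to 1287 in the placode and 3145 to 4608 in the vesicle at E9.5 and E10, and those of 12 neuron markers 1382 to 1508 and 1614 to 4474, and their part in these changes was not tested.

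Against surrounding tissue the direction depended on the gene. At E9, 3 of 11 probe sets were called, Btg1 higher and Btg2 and Gadd45g lower in the placode (6.04% of all probe sets). At E9.5 to E10.5, 5 of 11 were called, both of Cdkn1a higher and 1 each of Cdkn1b, Btg2 and Gadd45g lower (7.94% of all). At E11 to E15, 5 of 11 were called, both of Cdkn1a and 1 of Btg2 higher and 1 of Cdkn1b and that of Cdkn1c lower (15.3% of all). Cdkn1a was thus called higher in the ear at both later ages, and Btg2 lower at E9 and at E9.5 to E10.5 but higher at E11 to E15. Medians over the 11 were 0.08, -0.52 and -0.12, beside -0.01, 0.02 and 0.00 over all. With values as deposited 7 of 11 were called at E9, with both probe sets of Cdkn1a, Cdkn1b 1434045_at and the other one of Btg1 added, all higher. At E9.5 to E10.5 it was 3 of 11, since Btg2 and Gadd45g lost their calls. Surrounding tissue itself changed in 7 of 11 from E9 to E11 to E15, all higher (20.8% of all), and these were the probe sets of Cdkn1a, Cdkn1b, Cdkn1c and Btg1. Of these, the rise of Cdkn1a 1421679_a_at, 1.35 (SE 0.35, limma adjusted p = 0.00164), lost its call without replicate 1 of the E9 tissue (adjusted p = 0.0604).

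**Figure D3:**
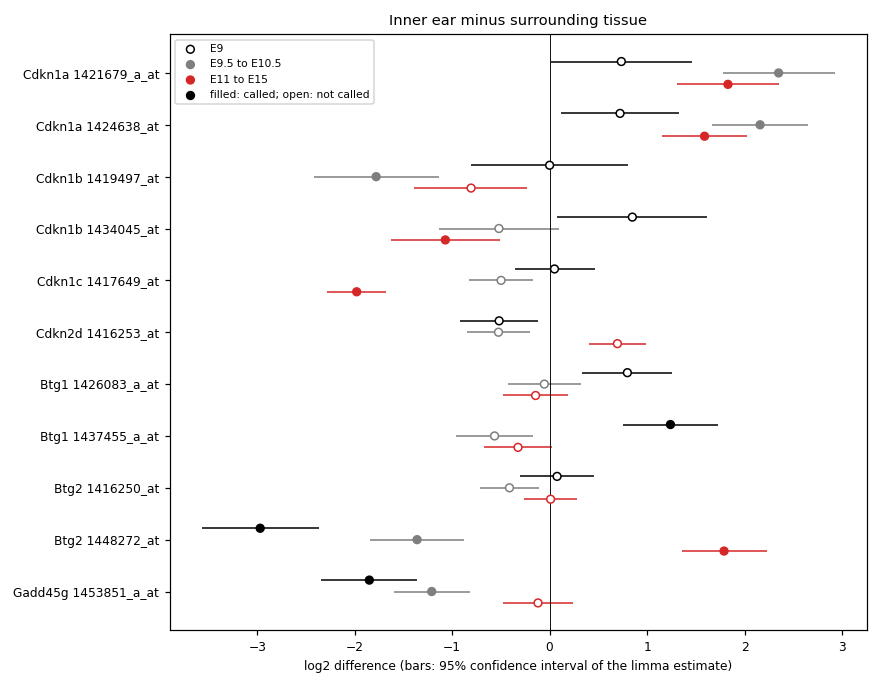
Log2 difference between inner ear and surrounding tissue for the 11 probe sets at 3 ages, with bars for the 95% confidence interval of the limma estimate and filled symbols for called differences. Cdkn1a lies to the right at E9.5 to E10.5 (2.35) and E11 to E15 (1.83), while Btg2 1448272_at crosses from -2.97 at E9 to 1.79 at E11 to E15.

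The days around E12 to E14 are when a wave of cell cycle exit is known to pass along the cochlea. Across E12 itself none of the 11 probe sets was called by limma in the cochlea, where 6 had an unadjusted p under 0.05 and 1.7% of all probe sets were called. Btg1, at 0.41 (SE 0.13, limma adjusted p = 0.0158) and 0.43 (SE 0.14, limma adjusted p = 0.015), passed on p with changes too small for a call. From E12.5 to E13.5 to E14.5 and E15 only Cdkn1b 1434045_at was called (2.54% of all). Cdkn1c at 0.68 (SE 0.13, limma adjusted p = 0.000143), Btg2 1448272_at at 0.62 (SE 0.19, limma adjusted p = 0.0178) and Gadd45g at 0.83 (SE 0.16, limma adjusted p = 0.000106) passed on p with changes under 1. Over E10.5 to E15 the calls were 4 of 11, both probe sets of Cdkn1b and both of Btg1, all higher (15.3% of all), and from E11 on, within 1 dispase time, 1 of each remained, Cdkn1b 1434045_at at 2.01 and Btg1 1437455_a_at at 1.03. Over E10.5 to E12 there were 4 of 11 in the cochlea (7.39% of all) and 2 of 11 in the vestibular organ (4.11% of all), and 0 in either from E11 on, with 6 and 1 at an unadjusted p under 0.05.

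Late trends, over E12.5 to E15, were called for 2 of 11 probe sets in the cochlea, Cdkn1b and Gadd45g, both higher (6.11% of all). In the utricle samples it was 3 of 11, Btg2 higher and both of Btg1 lower (7.46% of all). In the saccule it was 2 of 11, Cdkn2d higher and 1 of Btg1 lower (7% of all). Median changes over the 11 were 0.54, 0.29 and -0.11, beside -0.02, -0.03 and -0.04 over all probe sets.

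**Figure D4:**
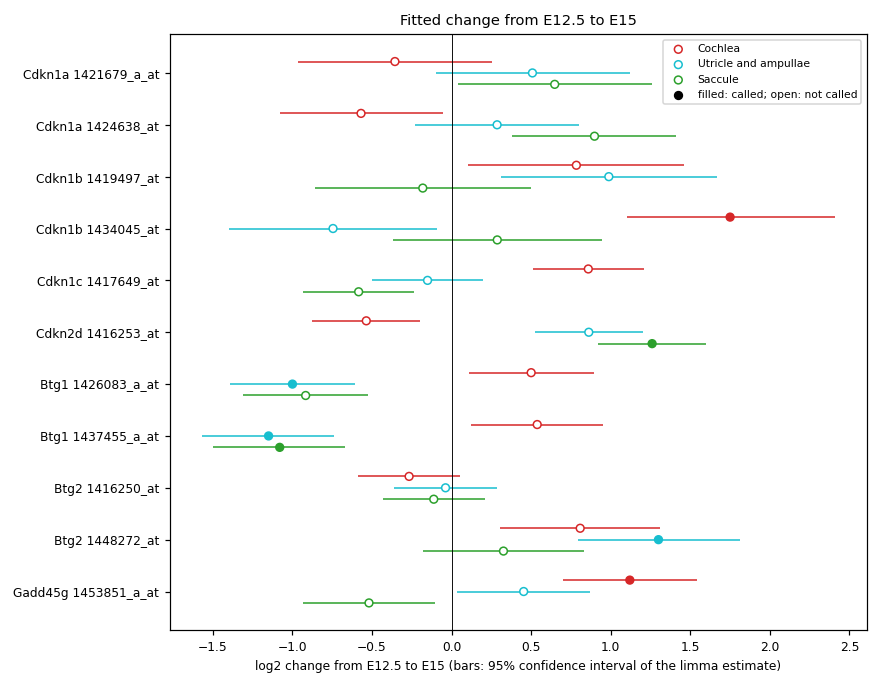
Fitted log2 change from E12.5 to E15 of the 11 probe sets in the cochlea, the utricle samples and the saccule, with the 95% confidence interval of the limma estimate and filled symbols for called changes. Cdkn1b 1434045_at lies at 1.75 in the cochlea, Cdkn2d at 1.26 in the saccule, and Btg1 1437455_a_at at 0.54, -1.15 and -1.08 in the order of the legend.

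Whether the trends differ between organs was tested directly. Between cochlea and utricle samples 5 of 11 differed (3.94% of all): Cdkn1b 1434045_at by 2.5 (SE 0.46, limma adjusted p = 0.000274), Cdkn1c by 1.01 (SE 0.24, limma adjusted p = 0.00578), Cdkn2d by -1.4 (SE 0.24, limma adjusted p = 9.04e-05), and Btg1 by 1.5 and 1.69. The other Cdkn1b probe set, 1419497_at, was not called, and 33.2% of all probe sets had a difference as low or lower. Without the E15 arrays 3 of 11 differed: Cdkn1b 1434045_at at 1.81, Cdkn2d at -1.07 and Btg1 1437455_a_at at 1.08. Without replicate 1 of the utricle samples at E12.5 and E14, where Cdkn1b stood apart, its difference was 2.23 (adjusted p = 0.000324). The Cdkn1c difference had no margin, and leaving out 1 array ended its call for 11 of 24 arrays, with 0.85 as the lowest value. Those were, in the cochlea, E12.5, E13.5 and E14.5 replicate 1 and E14 and E15 replicate 2, and in the utricle samples E12.5 and E15 replicate 1 and E13, E13.5, E14 and E14.5 replicate 2.

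Between cochlea and saccule 7 of 11 trends differed (4.75% of all), and this comparison shares the cochlea arrays with the one before. Higher in the cochlea were Cdkn1b 1434045_at at 1.47 (SE 0.46, limma adjusted p = 0.031), Cdkn1c at 1.44 (SE 0.24, limma adjusted p = 5.08e-05), Btg1 at 1.42 and 1.62, and Gadd45g at 1.64 (SE 0.29, limma adjusted p = 0.000115). Lower were Cdkn1a 1424638_at at -1.47 (SE 0.36, limma adjusted p = 0.00496) and Cdkn2d at -1.79 (SE 0.24, limma adjusted p = 7.27e-07). Without E15 only Cdkn2d was called, at -1.28 (adjusted p = 0.00129). The others then gave -1.23 for Cdkn1a 1424638_at (adjusted p = 0.0581), 0.99 for Cdkn1b, 0.82 for Cdkn1c, 0.75 and 0.89 for Btg1 and 0.89 for Gadd45g. Cdkn1a 1424638_at lost its call without cochlea E15 replicate 2 (adjusted p = 0.0591). Cdkn1b lost its call without any of 8 arrays (both cochlea arrays of E12.5, cochlea E14.5 and E15 replicate 2, saccule E12.5 and E14.5 replicate 2 and both saccule arrays of E15), down to 1.17 with an adjusted p up to 0.146.

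Over E10.5 to E12, 2 of 11 trends differed between cochlea and vestibular organ (0.854% of all), Btg1 1426083_a_at by 1.19 (SE 0.31, limma adjusted p = 0.0414) and Gadd45g by -1.38 (SE 0.32, limma adjusted p = 0.0184). Both calls depended on single arrays. The Btg1 call was lost without any 1 of 14 of the 16 arrays (all but replicate 1 of the cochlea at E11 and replicate 2 at E11.5), with values from 1.11 to 1.28. Gadd45g lost its call without replicate 1 of E10.5 or replicate 2 of E12 in the cochlea, or replicate 2 of E10.5 or replicate 1 of E12 in the vestibular organ. From E11 on the differences were 0.51 and -0.94, uncalled.

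Mean levels were tested as well as trends. Cochlea and vestibular organ differed in 1 of 11 probe sets (1.29% of all), cochlea and utricle samples in 2 of 11, both of Btg1 (2.82% of all), and cochlea and saccule in 5 of 11 (3.73% of all). The last were both of Btg1 and Cdkn1b 1434045_at higher, and Cdkn2d and Gadd45g lower in the cochlea. Cdkn1b, at 1.07 (SE 0.16, limma adjusted p = 3.47e-07), fell to 0.998 without cochlea E15 replicate 2. Between saccule and utricle samples limma called none of 11 (2.56% of all), with 6 at an unadjusted p under 0.05, among them Cdkn1c at -0.62 (SE 0.082, limma adjusted p = 8.58e-08), Cdkn2d at 0.6 (SE 0.081, limma adjusted p = 1.18e-07) and Btg2 1448272_at at 0.73 (SE 0.12, limma adjusted p = 5.69e-06).

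Many G2 and M phase genes were lower with stage from E12.5 to E15. Of 13 measured G2 and M phase genes, among them Mki67 and Top2a, 12 were called lower with stage in the late cochlea, 9 in the utricle samples and 11 in the saccule, and none higher, where 2.86%, 2.84% and 2.66% of all probe sets were called lower. Mki67, the marker of cycling cells, changed by -1.67, -1.38 and -1.25, and Top2a, which untangles chromosomes, by -1.87, -1.3 and -1.38. Of 11 S phase genes 8, 3 and 7 were called lower and none higher. Medians over the G2 and M list were -1.67, -1.17 and -1.35, and over the S phase list -1.16, -0.65 and -1.30, beside medians of all probe sets of -0.02, -0.03 and -0.04. In the cochlea the G2 and M list had a median of 10.36 on the log2 scale at E12, 9.79 at E13.5 and 7.80 at E15. Of the 4 kinase inhibitors followed here, Cdkn1b was called higher over the same days in the cochlea, by 1434045_at alone, and Cdkn2d in the saccule. None of the 4 was called in the utricle samples. Cdkn1b 1419497_at was called higher there with values as deposited (1.03) and with a pseudocount of 1 (1.44).

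**Figure D5:**
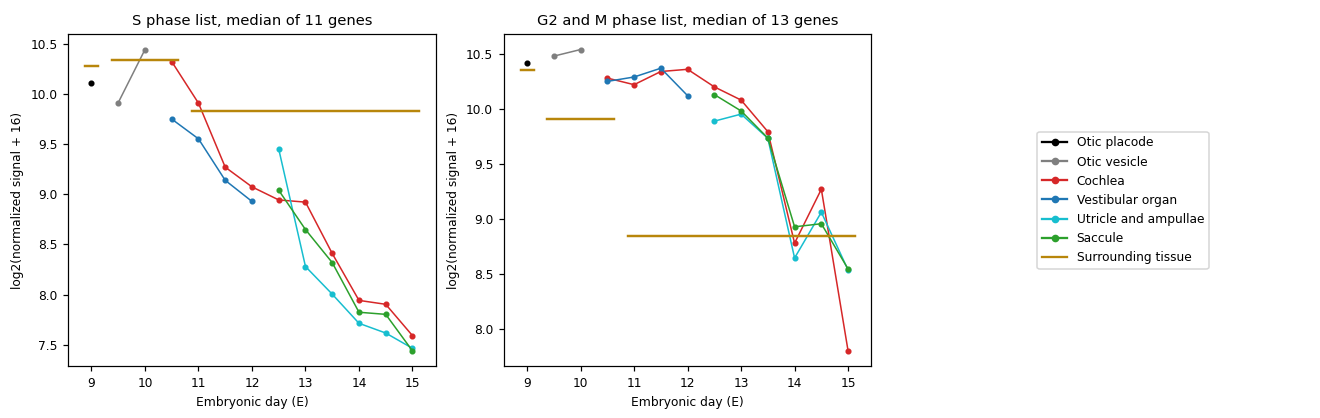
Median log2(signal + 16) over 11 S phase genes (left) and 13 G2 and M phase genes (right) against embryonic day, 1 point per group mean of 2 arrays, by tissue. In the cochlea the S phase median goes from 10.32 at E10.5 to 7.59 at E15, and the G2 and M median from 10.28 to 7.80.

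Genes of a list drawn up around the degradation of Cip/Kip proteins fell together in part. Its 5 measured genes are not all known to act on Cip/Kip proteins. Of them Skp2, Cks1b and Cks2 were called lower in the late cochlea and the saccule, and Skp2 and Cks2 in the utricle samples. Cul1 and Fbxw7 were not called. Over all probe sets 2.86% in the cochlea, 2.84% in the utricle samples and 2.66% in the saccule were called lower in these late trends. The shares called higher were 3.25%, 4.62% and 4.34%. In lists as short as those here, single calls say little about a list. Medians over the 5 were -1.04, -0.88 and -1.35. Skp2, the receptor subunit that targets Cdkn1b, changed by -1.82, -1.59 and -1.35, and by -2.73 over E10.5 to E15 in the cochlea. Of 7 G1 cyclins and kinases, Ccnd2 (-1.5) and Ccne2 (-1.1) were lower with stage in the late cochlea, Ccne2 (-1.33) in the utricle samples and none in the saccule. Of 3 pocket proteins, the brakes that these kinases release, Rbl1 fell in the late cochlea (-1.1) and Rbl2 rose in the utricle samples (1.02) and the saccule (1.39), while Rb1 was not called. Of the 7 measured p53 axis genes, which include Mdm2 and Mdm4, limma called none in these late trends (0, 4 and 3 at an unadjusted p under 0.05) or from placode to vesicle at E9.5 (2 at an unadjusted p under 0.05), where Cdkn1a was called. Their medians were -0.06, -0.05, -0.15 and -0.04.

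Relatives of the members gave single calls. Of the other INK4 genes 2 of 3 were measured, and Cdkn2b rose in the late saccule by 1.11 and over E10.5 to E15 in the cochlea by 1.07, with a mean 2.16 higher in the saccule than in the utricle samples. Of 4 measured BTG, TOB and GADD45 relatives, Btg4 rose over E10.5 to E15 in the cochlea (1.83), and none was called in the late trends. Of all probe sets, 15.3% were called in either direction over E10.5 to E15 in the cochlea. Between saccule and utricle samples it was 2.56%, and 4.34% were called higher in the late saccule trend. Of 11 measured prosensory and hair cell genes, 3 were called higher with stage in the late cochlea, 5 in the utricle samples and 6 in the saccule, and none lower, where 3.25%, 4.62% and 4.34% of all probe sets were called higher, with medians over the 11 of -0.0048, 0.87 and 1.41. The 3 of the cochlea were called in all: Atoh1, the transcription factor that starts hair cell fate, rose by 2.24, 2.2 and 2.0, Gfi1, a hair cell transcription factor, by 1.19, 4.65 and 4.38, and the motor protein gene Myo6 by 1.49, 3.46 and 3.54. The Notch targets Hey1 and Hey2 had cochlea trends of -0.66 and -0.85, under the size for a call.

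Few levels stood clear of their neighbours when the 32 groups were ordered by mean. For Cdkn1a 1421679_a_at, 4 of 31 neighbouring pairs differed by more than the SD within groups (0.38 on the log2 scale), and the 3 lowest groups were surrounding tissue at E9 and at E9.5 to E10.5 and the placode. For Cdkn1b 1434045_at it was 2 of 31 (SD 0.41), with the mean of the cochlea at E15 above all others by more than that SD. Its arrays (280.1 and 512) still overlapped those of the late surrounding tissue (329 and 128). For Cdkn1c it was 3 of 31 (SD 0.20), with late surrounding tissue clear at the top, then the cochlea at E15 clear above the utricle samples at E12.5. For Cdkn2d it was 2 of 31 (SD 0.20), with the saccule at E15 and E14.5 clear above the saccule at E14. For Btg1 1437455_a_at it was 4 of 31 (SD 0.25), with the 8 cochlea groups of E11.5 and later at the top. For Btg2 1448272_at it was 3 of 31 (SD 0.31), with the saccule at E14 on top, and for Gadd45g 1 of 31 (SD 0.25), between the placode and the cochlea at E12.

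Over the 29 inner ear group means, the genes whose pattern was most like each member, out of 9351 compared by Pearson correlation, were these. For Cdkn1a they were Clcn2 (0.851), Tmem184b (0.836), Smpd2 (0.82). For Cdkn1b they were Pkp4 (0.851), Efhd1 (0.798), Ext1 (0.794). For Cdkn1c they were Fbn2 (0.868), Jund (0.819), Zfp46 (0.777), and for Cdkn2d Ogfod3 (0.867), B9d2 (0.865), Selenom (0.864). For Btg1 they were Scara3 (0.898), Tac1 (0.89), Slco5a1 (0.868), for Btg2 Dtna (0.929), Vps9d1 (0.911), Wrap73 (0.905), and for Gadd45g Btg2 (0.852), B3gat1 (0.781), Cyp2j6 (0.778). Gadd45g is thus the only member with another member, Btg2, in its list. The points share arrays and the course of stages, and the correlations describe these samples only.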

How the data were processed

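Pools of inner ear or surrounding tissue from CBA/J embryos were hybridised to 64 Affymetrix arrays, 2 per group. The authors deposited 1 intensity per probe set and array, made with MAS5 per the submitters' processing notes; neither its version nor its scaling target is given in the sources used here. The deposited intensities had array medians of 64.7 to 108 and a floor of 10 that held 5.43% to 12% of an array's values, and the number of arrays limits the precision. Symbols came from the platform annotation, which gave 1 symbol to 20380 probe sets, several to 691 and none to 1555.

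Intensities were quantile normalized and taken as log2(signal + 16). Probe sets at or above the array median in at least 2 arrays were kept, 15337 of 22626. limma 3.58.1 in R 4.3.3 fitted 32 group means with 32 residual degrees of freedom and a mean-variance trend, with Benjamini-Hochberg adjustment over the 15337 in each of 22 comparisons. A call needs an adjusted p under 0.05 and a change of at least 1. Trends are least-squares slopes over stage means times the days spanned. In simulated data 85% to 100% of probe sets changed by 1.5 or 2.5 were called in the 4 comparisons simulated. The simulated noise was independent, with 1 spread per probe set for all arrays, while the weights of the real arrays ran from 0.284 to 2.29. These shares may therefore be too high for the data here. Smaller changes and the step from E9 to E9.5 were not simulated.

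Probe sets of the 7 genes are all named. The 3 most alike genes are named by correlation, and pathway lists are given by counts with called genes of a list named after their values were seen. The genes and lists were chosen with earlier results of these data known. The 2 pools of a group are separate litters, so p-values measure the spread between pools of 1 strain. Same-numbered pools of 1 stage deviated together with r above 0.1 in 18 of 22 pairs of tissues (from -0.496 to 0.57) and not in all. At some stages, as at E14, they also had equal pool sizes in the cochlea, the utricle samples and the saccule. The labels do not say that a number marks a shared litter, so the numbers were not taken to pair the samples, though shared embryos remain possible. Alternatives changed the normalization, the pseudocount, the filter, the probe sets per gene, array weights, the arrays in the fit, the block and the stages.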

Additional observations from a re-analysis of the deposited data

Results flagged for a closer look

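Several members changed differently with stage in different organs, by a limma test of the difference between their trends, and these differences merit a second look because they rest on pairs of pools. From E12.5 to E15 the cochlea trend minus that of the utricle samples was 2.5 for Cdkn1b 1434045_at (adjusted p = 0.000274), 1.01 for Cdkn1c (adjusted p = 0.00578), -1.4 for Cdkn2d (adjusted p = 9.04e-05), and 1.5 and 1.69 for Btg1 1426083_a_at and 1437455_a_at (adjusted p = 0.000261 and 9.94e-05). The other Cdkn1b probe set, 1419497_at, was not called, and 33.2% of all probe sets had a difference as low or lower.

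Against the saccule, with the same cochlea arrays, the difference was -1.47 for Cdkn1a 1424638_at (adjusted p = 0.00496), 1.47 for Cdkn1b 1434045_at (adjusted p = 0.031), 1.44 for Cdkn1c (adjusted p = 5.08e-05) and -1.79 for Cdkn2d (adjusted p = 7.27e-07). It was 1.42 and 1.62 for the Btg1 probe sets (adjusted p = 0.000359 and 0.000123) and 1.64 for Gadd45g (adjusted p = 0.000115). The second Cdkn1a probe set, 1421679_a_at, gave -1.0 (adjusted p = 0.131).

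From E10.5 to E12 the cochlea trend minus that of the vestibular organ was 1.19 for Btg1 1426083_a_at (adjusted p = 0.0414) and -1.38 for Gadd45g (adjusted p = 0.0184).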

How the results depend on the processing

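The 70 called changes of single probe sets had 789 values under the alternatives other than single arrays left out, of which 722 kept direction and call, 66 kept direction only and 1 turned: Cdkn1b 1419497_at over E10.5 to E12 in the cochlea, which was -0.394 from E11 on. Counts of called probe sets, of 11, moved by over 1.5 times as follows. With values as deposited they were 7 in place of 3 for placode against surrounding tissue, 3 in place of 5 for ear against surrounding tissue at E9.5 to E10.5, 2 in place of 1 for E9.5 to E10, 1 in place of 2 for the cochlea minus vestibular trend and 3 in place of 5 for cochlea against saccule. A pseudocount of 1 gave 1 in place of 2 for the cochlea minus vestibular trend and 2 in place of 1 for cochlea against vestibular organ. A pseudocount of 64 gave 2 in place of 4 for E9 to E9.5 and 1 for the vestibular (from 2), utricle (from 3) and saccule (from 2) trends. No filter gave 1 in place of 2 for the cochlea minus vestibular trend, and so did leaving out E11. With 1 probe set per gene, and so 7 tested, counts were 3 for ear against surrounding tissue at E9.5 to E10.5, 0 for E9.5 to E10, 2 for the cochlea over E10.5 to E15 and over E10.5 to E12, 1 for the cochlea minus vestibular trend, 1 for cochlea against utricle and 4 for surrounding tissue. Array weights gave 2 for E9 to E9.5 and 0 for E9.5 to E10, and limma on only the groups compared gave 0 for both, with 5 and 2 at an unadjusted p under 0.05. Without E15, chosen after seeing the data, counts were 0 for the late cochlea mean, 1 for the cochlea (from 2), utricle and saccule trends, 3 for cochlea minus utricle, 1 for cochlea minus saccule (from 7) and 3 for cochlea against saccule. From E11 on, within 1 dispase time, they were 2 for the cochlea to E15, 0 for the cochlea to E12, the vestibular organ and their difference, and 2 for cochlea against vestibular organ.

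Leaving out 1 array gave 2 to 5 for E9 to E9.5 (2 without either placode array or vesicle E9.5 replicate 1), 0 to 3 for E9.5 to E10 (3 and 0 without vesicle E9.5 replicate 1 and 2, 2 without vesicle E10 replicate 2) and 0 to 2 for the cochlea minus vestibular trend (0 without cochlea E10.5 replicate 1 or E12 replicate 2, or vestibular E10.5 replicate 2 or E12 replicate 1). It gave 1 to 3 for the late cochlea trend (1 without cochlea E15 replicate 1), 1 to 3 for the saccule trend (1 without E12.5 replicate 2), 3 to 6 for cochlea against saccule (3 without cochlea E15 replicate 2), 2 to 5 for the utricle trend (5 without E12.5 replicate 2) and 1 to 2 for the vestibular trend (1 without any array of E10.5 or E12). The replicate number as a replicate block changed no call of a member (counts of 3 for placode against surrounding tissue, 5 and 5 for the ear at the later ages), nor did a random block of stage and number (correlation 0.243). Values at the floor of 10 and the 2 arrays of each group limit what can be said of Cdkn1b 1419497_at.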
